A study of Mus musculus with 14 samples.

Results

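Nearly all mouse genes named Zfp with a number encode zinc finger proteins, most of them transcription factors. The RNA of these genes was followed in the brains of mice with a conditional knockout of Thap1. The group was formed from the 340 symbols made of Zfp and a number among the 23337 genes of the count tables. A gene was taken when its mean over all 14 libraries was at least 5 CPM (counts per 1e6 counts of the library), which gave 277 genes, and Zfp658 and Zfp882 were added by name, for 279 in all. The level rule used no comparison between groups. Zfp658 and Zfp882 were named because of earlier values in these same libraries, Zfp658 in striatum and Zfp882 in cerebellum. Those values and the genes' differences between the tissues are therefore given without a test. Both would also have passed the level rule, with means of 18.0 and 18.3 CPM. Just inside the level rule lay Zfp747 at 5.26 CPM, Zfp566 at 5.58 CPM and Zfp167 at 5.59 CPM, and just outside it lay Zfp442 at 4.99 CPM, Zfp691 at 4.83 CPM and Zfp524 at 4.81 CPM.

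The libraries came from the striatum of Thap1 cKO mice (n = 3) and wildtype mice (WT, n = 3), and from the cerebellum of Thap1 cKO mice (n = 4) and WT mice (n = 4). All were 6 months old and of the C57Bl/6 background, and the WT mice were littermates. The Cre driver, the cells in which it acts, the deleted part of Thap1 and whether each sample is a separate mouse are not stated in the labels. Accordingly, p-values speak of the spread among the sampled libraries, which may be partly technical. THAP1 is a transcription factor with a zinc-coordinating domain of another type than those of the Zfp proteins, and its mutations cause the human movement disorder DYT6 dystonia.

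Zinc fingers of the C2H2 type are short folds in which a pair of cysteines and a pair of histidines hold a zinc ion, and arrays of them read DNA sequence. Many of these proteins also carry a KRAB domain, which recruits TRIM28 and through it the histone methyltransferase SETDB1 and heterochromatin proteins. KRAB zinc finger proteins are best known for silencing transposable elements and for protecting imprinted genes, and their genes lie in clusters that grew by duplication. Other members, without KRAB, regulate neural development or bind RNA.

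Zfp783, Zfp862 and Zfp939 are annotated as transcribed pseudogenes and have no coding sequence. The label held for nearly all members with a coding sequence. Of these 276 genes, 269 (97.5%) had at least 1 C2H2 finger in the translated reference coding sequence, against 3.66% of 21901 protein-coding genes. A finger was counted where 2 to 4 residues separated the cysteines, 12 the second cysteine from the first histidine, and 3 to 5 the histidines. The median was 10 fingers, and the most was 36. The 7 members without one were Zfp259, Zfp330, Zfp365, Zfp503, Zfp703, Zfp839 and Zfp935. A KRAB pattern (F or Y, any residue, D, V, any 3 residues, F) was found in 127 members (46.0%), against 1.79% of the protein-coding genes. Members lay on 20 chromosomes, with 72 on chromosome 7, 32 on chromosome 17, 23 on chromosome 8 and 20 on chromosome 13. Exons of 89 members overlapped an exon of another gene, 25 on the same strand and 69 on the other, and their counts are uncertain because the strand setting of the counting is unstated.

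The promoters of Zfp882, Zfp658 and Zfp617 are shown because the first pair carried the lowest cKO values relative to WT among the members and Zfp617 shares an exon with Zfp882. Each runs from 250 bases before to 50 after a start of the gene in RefSeq (GRCm38.p6, plus strand): chr8:71908356-71908655 for Zfp882, chr7:43562120-43562419 for Zfp658 and chr8:71922575-71922874 for Zfp617. The Zfp617 window lies inside the annotated gene (chr8:71908635-71934629) and beyond the end of Zfp882 at 71916354. It is therefore not the start in the exon shared with Zfp882. Capitals mark matches on either strand to TNNNGGCA, the letters described for THAP1, and to AAGATGGCG, the core letters described for the factor YY1.
Zfp882: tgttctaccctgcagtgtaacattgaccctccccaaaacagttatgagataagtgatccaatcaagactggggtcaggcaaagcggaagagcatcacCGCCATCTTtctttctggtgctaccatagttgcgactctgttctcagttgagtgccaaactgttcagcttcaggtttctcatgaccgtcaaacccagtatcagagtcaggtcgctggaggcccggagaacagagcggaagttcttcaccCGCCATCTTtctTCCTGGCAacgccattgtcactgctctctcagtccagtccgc
Zfp658: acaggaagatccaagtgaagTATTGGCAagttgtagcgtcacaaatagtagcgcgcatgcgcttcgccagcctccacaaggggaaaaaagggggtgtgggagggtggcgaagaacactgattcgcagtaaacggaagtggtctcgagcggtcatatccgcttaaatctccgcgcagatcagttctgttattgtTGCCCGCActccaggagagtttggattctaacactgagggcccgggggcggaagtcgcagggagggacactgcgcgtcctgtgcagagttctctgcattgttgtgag
Zfp617: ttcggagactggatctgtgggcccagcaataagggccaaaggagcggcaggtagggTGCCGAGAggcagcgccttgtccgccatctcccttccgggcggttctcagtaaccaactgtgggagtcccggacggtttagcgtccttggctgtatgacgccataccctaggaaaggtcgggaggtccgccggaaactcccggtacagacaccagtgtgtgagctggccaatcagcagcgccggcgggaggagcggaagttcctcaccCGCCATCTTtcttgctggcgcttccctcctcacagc
The Zfp882 window held AAGATGGCG on the minus strand at bases -153 to -145 and -4 to 4 from the start, and TNNNGGCA on the plus strand at 8 to 15. In the Zfp658 window TNNNGGCA occurred on the plus strand at -230 to -223 and on the minus strand at -57 to -50, and AAGATGGCG did not occur. For Zfp617, TNNNGGCA lay on the minus strand at -194 to -187 and AAGATGGCG on the minus strand at 14 to 22. The pair of motifs does not share a stretch in any of these windows. TNNNGGCA was in the windows of 110 of the 230 members that have one (47.8%) and of 45.4% of all 27025 genes. AAGATGGCG, chosen after the Zfp882 window had been seen, was in 10 member windows (4.35%), those of Zfp157, Zfp207, Zfp27, Zfp292, Zfp341, Zfp39, Zfp507, Zfp617, Zfp68 and Zfp882, and in 1.64% of all. Among the members that have a window, Zfp882 was the 1 with AAGATGGCG at 2 places, in the window seen before this motif was chosen. The share of all genes with 2 such places is not given here. These are matches of letters and not measured binding.

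The libraries labelled cKO held less Thap1 RNA than those labelled WT in both tissues. In cerebellum Thap1 had 7.45, 7.52, 7.76 and 6.83 CPM in cKO, against 10.2, 8.17, 10.3 and 8.26 CPM in WT. The groups did not overlap, with a log2 fold change of -0.34 (SE 0.10). The adjusted p, from the quasi-likelihood test of edgeR over all genes, was 0.0488. In striatum it had 5.40, 7.64 and 3.79 CPM in cKO, against 12.8, 14.4 and 15.2 CPM in WT, again without overlap, with a log2 fold change of -1.36 (SE 0.231) and an adjusted p of 0.0562. That striatal value lies just above the threshold of 0.05 over all genes, and it passed without WT replicate 1 (0.0248). The cerebellar call was kept without WT replicate 2 (0.0224) or 4 (0.0382), and lost without WT replicate 1 or 3 or any 1 cKO replicate (0.0659 to 0.17).

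Striatal libraries held 12659013 to 14258141 counts in cKO and 12595941 to 13499875 in WT. The cerebellar ones held 19860775 to 28099205 in cKO and 19458954 to 24331760 in WT. In striatum WT replicate 1 stood apart: its counts gave a chi-square over degrees of freedom of 28.6 and 28.2 against the other WT libraries, which gave 6.79 against each other, and it lay alone on the first principal component (53.5% of the variance). By Xist, replicate 1 of each striatal genotype was the 1 male of its group, and each cerebellar group held 2 males and 2 females. Markers set each tissue apart, with 10 markers of striatal projection neurons summing to between 9398 and 11190 CPM in striatum and between 354 and 430 CPM in cerebellum.

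Zfp658, on chromosome 7 (chr7:43562256-43575461, plus strand, GENCODE vM21 on mm10), encodes a KRAB protein with 21 fingers by the patterns above. In striatum it had 2.53, 2.34 and 2.77 CPM in cKO, from 36, 31 and 35 counts, against 9.70, 7.26 and 7.94 CPM in WT, from 123, 98 and 100 counts. All cKO libraries lay below all WT libraries, in the values for which the gene was named. The means were 2.54 ± 0.211 CPM in cKO and 8.30 ± 1.26 CPM in WT (SD, n = 3 each). On the log2 scale cKO was at -1.74 relative to WT (SE 0.199).

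In cerebellum the same gene had 27.4, 30.6, 23.3 and 24.9 CPM in cKO, against 27.9, 31.3, 27.7 and 26.8 CPM in WT. The groups overlapped, and the log2 fold change of -0.12 (SE 0.0745) did not pass the test (adjusted p 0.394, between 0.136 and 0.703 over the other settings). The interaction, as the cerebellar log2 fold change minus the striatal one, was 1.61 (SE 0.186), and it lay between 1.48 and 1.71 in the other settings. In WT mice the gene stood at 28.4 ± 1.94 CPM in cerebellum (SD, n = 4) and 8.30 ± 1.26 CPM in striatum (SD, n = 3). The log2 difference was 1.61 (SE 0.127) in the fit of the WT libraries alone, and every cerebellar WT library lay above every striatal one.

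Zfp882 lies on chromosome 8 (chr8:71908608-71916354, plus strand), 45.75 megabases from Thap1 on the same chromosome, and encodes a KRAB protein with 13 fingers. Its cerebellar level was 4.93, 4.27, 3.60 and 4.48 CPM in cKO, from 89 to 126 counts, against 38.2, 27.0, 34.4 and 27.8 CPM in WT, from 525 to 768 counts. Every cKO library lay below the lowest WT library, in the values for which the gene was named. Relative to WT it was at -2.90 on the log2 scale (SE 0.134), so that the cKO level was 13.4% of WT.

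The striatal libraries had 9.61, 11.9 and 13.7 CPM of Zfp882 in cKO, against 28.7, 24.4 and 23.3 CPM in WT. No cKO library reached a WT library here either. This contrast was not the one that brought the gene into the group, and in the test over all genes it fell, by 1.15 on the log2 scale (SE 0.164, adjusted p 0.0335). The gene was named with earlier results of these same libraries known, however, so this p-value is not independent of that choice. The call was lost without WT replicate 2 (adjusted p 0.0516), WT replicate 3 (0.103), cKO replicate 1 (0.207), cKO replicate 2 (0.131) or cKO replicate 3 (0.111), each of which leaves 5 libraries, and was kept without WT replicate 1 (0.00678) and without replicate 1 of both genotypes (0.0212). The interaction, taken the same way, was -1.76 (SE 0.218). The order of the tissues was the opposite of that of Zfp658: Zfp882 was further below WT in cerebellum and Zfp658 in striatum. Each gene was named for its value in that tissue, so this opposite order is not independent of the choice. In WT mice Zfp882 stood at 31.8 ± 5.38 CPM in cerebellum and 25.5 ± 2.86 CPM in striatum (SD, n = 4 and 3), and the libraries of the tissues overlapped.

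**Figure D1:**
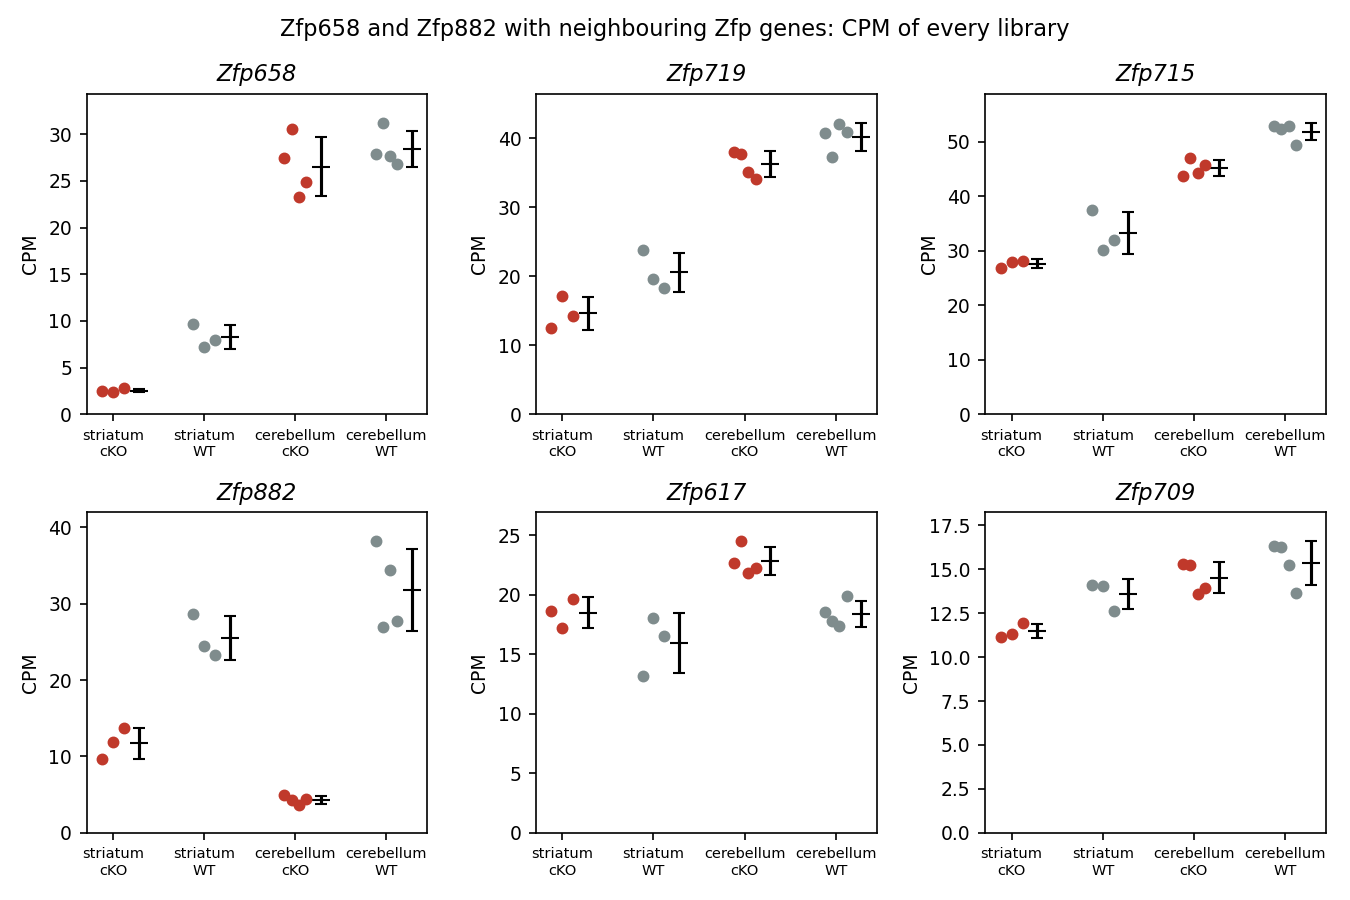
CPM of every library (points) with the mean and SD of each group (bar at the right of the points, n = 3 per genotype in striatum and 4 in cerebellum) for Zfp658 and its neighbours Zfp719 and Zfp715 on chromosome 7, and for Zfp882 and its neighbours Zfp617 and Zfp709 on chromosome 8. The cKO points of Zfp882 lie below all WT points in both tissues, those of Zfp658 only in striatum, where they sit between 2.34 and 2.77 CPM.

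Within 1 megabase of Zfp658 lie Zfp719 and Zfp715, both with a KRAB pattern, and Zfp819 and Zfp936, whose means of 0.074 and 0.013 CPM were under the level rule. Zfp719 (chr7:43579610-43593235), the next gene downstream, had 12.5, 17.1 and 14.2 CPM in striatal cKO, against 23.7, 19.6 and 18.3 CPM in striatal WT. The groups did not overlap, but the log2 fold change of -0.53 (SE 0.167) did not pass the test (adjusted p 0.461), and without WT replicate 1 it was -0.39. In cerebellum Zfp719 had a log2 fold change of -0.17 (adjusted p 0.0579). Zfp715 (chr7:43296197-43313294) fell in cerebellum, with 43.8, 47.1, 44.4 and 45.8 CPM in cKO, against 52.9, 52.4, 52.9 and 49.5 CPM in WT (log2 fold change -0.21, SE 0.0435, adjusted p 0.00648). In striatum its value was -0.30 (adjusted p 0.636).

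Zfp617 (chr8:71908635-71934629), a KRAB gene with 14 fingers, rose in cerebellum, where Zfp882 was lower. It had 22.7, 24.5, 21.8 and 22.2 CPM in cKO, against 18.6, 17.8, 17.4 and 19.9 CPM in WT. All 4 cKO libraries exceeded all 4 WT libraries, and the log2 fold change of 0.29 (SE 0.0630) passed the test (adjusted p 0.00834). An annotated transcript of Zfp617 starts in an exon that it shares with Zfp882 on the same strand, and how the counting shared reads of that exon is unstated, so both counts carry that uncertainty. In striatum Zfp617 had 18.7, 17.2 and 19.7 CPM in cKO, against 13.2, 18.1 and 16.5 CPM in WT, and its log2 fold change of 0.18 did not pass the test (adjusted p 0.782). Zfp709, on the other side of Zfp882, and Zfp961, beyond Zfp617, did not pass the test in either tissue, with cerebellar log2 fold changes of -0.09 (adjusted p 0.487) and -0.17 (adjusted p 0.0705).

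In cerebellum 17 of the 276 tested genes chosen by level were called at an adjusted p under 0.05, which is 6.16%, against 7.59% of all 14775 genes tested. Of these, 5 rose (1.81%, against 2.63% of all genes) and 12 fell (4.35%, against 4.96%). The share of called members was therefore close to that of all genes. Zfp831 was too low in cerebellum to be tested.

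The gene with the smallest p among those that rose was Zfp597, whose human counterpart is imprinted (chr16:3858321-3884561, minus strand). In cerebellum it had 57.5, 59.0, 57.1 and 56.1 CPM in cKO, against 45.0, 41.1, 41.8 and 43.6 CPM in WT, which is 0.41 higher on the log2 scale (SE 0.0431, adjusted p 1.6e-05). In striatum it had 49.6, 48.0 and 46.5 CPM in cKO, against 35.7, 33.8 and 31.0 CPM in WT. Neither pair of groups overlapped, and the striatal log2 fold change was of similar size, 0.48 (SE 0.0998), but its adjusted p over all genes was 0.125. That striatal value was called by DESeq2 (0.0215), by limma-voom with quality weights (0.00756), with the exon length trend removed (0.0257), in 1 model of all 14 libraries (0.000536) and without WT replicate 1 (0.0102). It was not called with DESeq2's size factors (0.131), no filter (0.1055) or the replicate block (0.290). Nor was it called without any other single library (0.252 to 0.601) or without replicate 1 of both genotypes (0.0582). The cerebellar minus striatal log2 fold change of Zfp597 was -0.09 (SE 0.0876, adjusted p 0.714). Exons of Zfp174, Gm26675 and Naa60 overlap it on the other strand.

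Zfp367 rose in cerebellum, with 38.3 to 42.8 CPM in cKO and 31.4 to 33.8 CPM in WT (log2 fold change 0.27, adjusted p 0.0021). Zfp711, whose human counterpart is an X-linked intellectual disability gene, had 17.1, 17.1, 16.9 and 15.2 CPM in cKO, against 13.0, 12.8, 13.5 and 13.3 CPM in WT (0.32, adjusted p 0.00636). Zfp937, a KRAB gene, had 10.7 to 12.5 CPM in cKO and 8.45 to 10.2 CPM in WT (0.30, adjusted p 0.0389). None of the 3 overlapped between genotypes, and in striatum their log2 fold changes lay between -0.15 and -0.07 without a call. The call of Zfp937 was kept in 3 of the 8 fits that leave out 1 library, and was lost without WT replicate 1 or 4 or without cKO replicate 1, 2 or 3 (adjusted p up to 0.119).

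Among the genes that fell in cerebellum, Zfp563 had the smallest p. This KRAB gene on chromosome 17 had 26.5, 28.4, 27.3 and 26.5 CPM in cKO, against 37.6, 34.3, 34.5 and 35.5 CPM in WT (log2 fold change -0.40, SE 0.0493, adjusted p 7.82e-05). Its striatal libraries had 19.7, 21.0 and 23.1 CPM in cKO, against 27.2, 26.2 and 23.8 CPM in WT. In both tissues all cKO libraries lay below all WT libraries, while the striatal log2 fold change of -0.31 (SE 0.118) had an adjusted p of 0.614.

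Zfp687, a regulator found with ZMYND8 in human cells and mutated in a form of Paget disease of bone, had 74.8, 73.9, 73.9 and 76.4 CPM in cerebellar cKO, against 84.9, 82.7, 88.6 and 93.8 CPM in cerebellar WT (log2 fold change -0.24, adjusted p 0.00201). Zfp395, whose human counterpart binds the promoter of the Huntington disease gene, had 37.9 to 44.9 CPM in cKO and 46.8 to 53.0 CPM in WT (-0.28, adjusted p 0.00672). Zfp219, a partner of SOX9 in mouse cartilage formation, had 102.8 to 114.5 CPM in cKO and 117.0 to 129.0 CPM in WT (-0.18, adjusted p 0.00807). These 3 did not overlap between genotypes in cerebellum, and their striatal log2 fold changes lay between -0.04 and 0.04.

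The other genes that fell in cerebellum were Zfp689, Zfp747, Zfp444, Zfp787, Zfp235, Zfp704 and Zfp276, besides Zfp715. Zfp444 had a log2 fold change of -0.20 (adjusted p 0.0188), Zfp787 of -0.25 (0.0353), Zfp235 of -0.19 (0.0401) and Zfp704 of -0.16 (0.0214). The last was called although 1 cKO library, at 148.3 CPM, exceeded the lowest WT library at 147.0 CPM. Zfp276, named after its value was seen, had -0.20 (adjusted p 0.0473), with 1 cKO library at 27.4 CPM above the lowest WT library at 26.6 CPM. In the fits that leave out 1 library the call was kept in all 8 for Zfp715, Zfp689, Zfp747, Zfp563, Zfp687, Zfp395, Zfp219, Zfp597, Zfp367, Zfp711 and Zfp617. Of the same 8 fits, Zfp235 kept its call in 1 (without WT replicate 1), Zfp787 in 2 (without WT replicate 2 or cKO replicate 1), Zfp704 in 3 (without WT replicate 2 or 4 or cKO replicate 3) and Zfp444 in 6 (all but those without WT replicate 3 or cKO replicate 4), with adjusted p up to 0.129. Zfp276 kept its call in 2 (without WT replicate 4 or cKO replicate 2), with adjusted p up to 0.148, and had no call with DESeq2 (0.0517), limma-voom (0.07) or 1 model of all libraries (0.237).

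**Figure D2:**
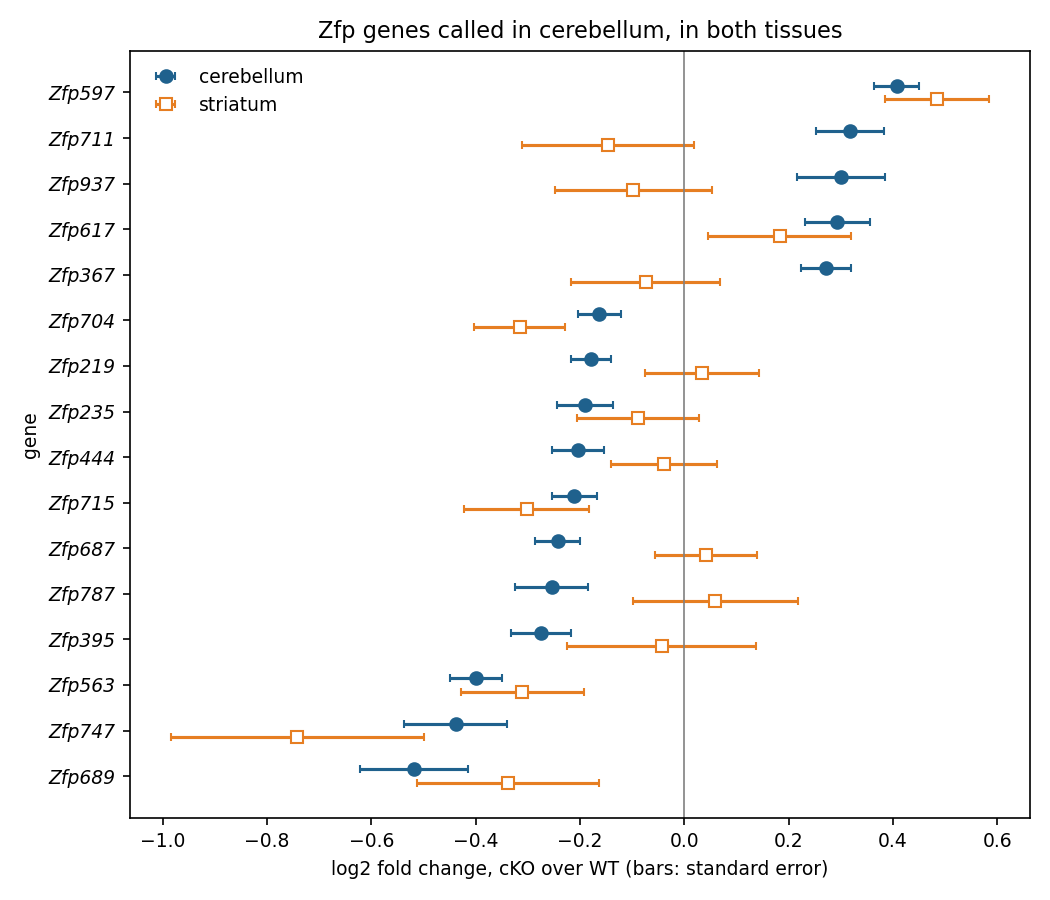
Log2 fold change of cKO over WT in cerebellum (filled circles) and striatum (open squares), with standard errors, for 16 of the 17 genes chosen by level and called in cerebellum, ordered by the cerebellar value. Zfp597 is at 0.41 in cerebellum and 0.48 in striatum, and Zfp689 is lowest in cerebellum at -0.52.

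Members chosen by level gave no call in striatum (0 of 277 in edgeR's quasi-likelihood test), against 0.384% of all 14080 genes tested (0.0639% higher and 0.32% lower). At an unadjusted p under 0.05 there were 17 (6.14%), against 7.24% of all genes. DESeq2 and limma-voom each called 1, Zfp597. In 1 model of all 14 libraries, in which the tissues share their estimate of spread, 7 were called in striatum: Zfp597 was higher, and Zfp142, Zfp180, Zfp276, Zfp704, Zfp719 and Zfp747 were lower. The shares of all genes called with these tools and in this model are not given here. These counts therefore have no background to be read against, and 0.384% belongs to the main fit. Zfp704 had 114.3, 108.4 and 110.0 CPM in striatal cKO, against 143.4, 127.1 and 133.4 CPM in striatal WT (log2 fold change -0.32, adjusted p 0.344 with striatum fitted apart). Zfp180 had 124.7, 111.7 and 117.4 CPM in striatal cKO, against 133.8, 141.3 and 142.9 CPM in striatal WT (-0.28, adjusted p 0.367). In both genes every cKO library lay below every WT library. The striatal log2 fold changes ran from -0.74 for Zfp747 to 0.48 for Zfp597. In striatum all cKO libraries lay below all WT libraries in 39 of the 277 genes (14.1%, against 6.24% of all genes tested) and above them in 11 (3.97%, against 9.67%). In cerebellum they lay below in 23 of 276 genes (8.33%, against 6.73%) and above in 9 (3.26%, against 7.88%). Below WT in both tissues were Zfp180, Zfp563, Zfp664, Zfp689, Zfp715, Zfp747 and Zfp809, and Zfp882 among the pair added by name. The share of all genes below WT in both tissues was not counted, so this list has no background to be read against.

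The genes as a group lay slightly lower in cKO in both tissues. Their median log2 fold change was -0.07 in striatum and -0.04 in cerebellum, against 0.00 over all genes in each. A negative value was found for 185 of 277 genes in striatum (66.8%, against 49.4% of all genes) and for 185 of 276 in cerebellum (67.0%, against 48.4%). The sign of both medians was the same under each other scaling, tool and left-out library. Without WT replicate 1, however, the striatal median was -0.03 and the negative share 59.9%, and without replicate 1 of both genotypes they were -0.03 and 60.3%. The 279 members together summed to 9103 to 9308 CPM in striatal cKO libraries, against 9386 to 10097 CPM in striatal WT, the highest being WT replicate 1. In cerebellum they summed to 11083 to 11418 CPM in cKO and 11273 to 11720 CPM in WT, with overlap. Genes of one family share sequence and libraries and are not independent, so these shares are a description. In tissue RNA, fewer cells of a type and less RNA per cell cannot be told apart.

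**Figure D3:**
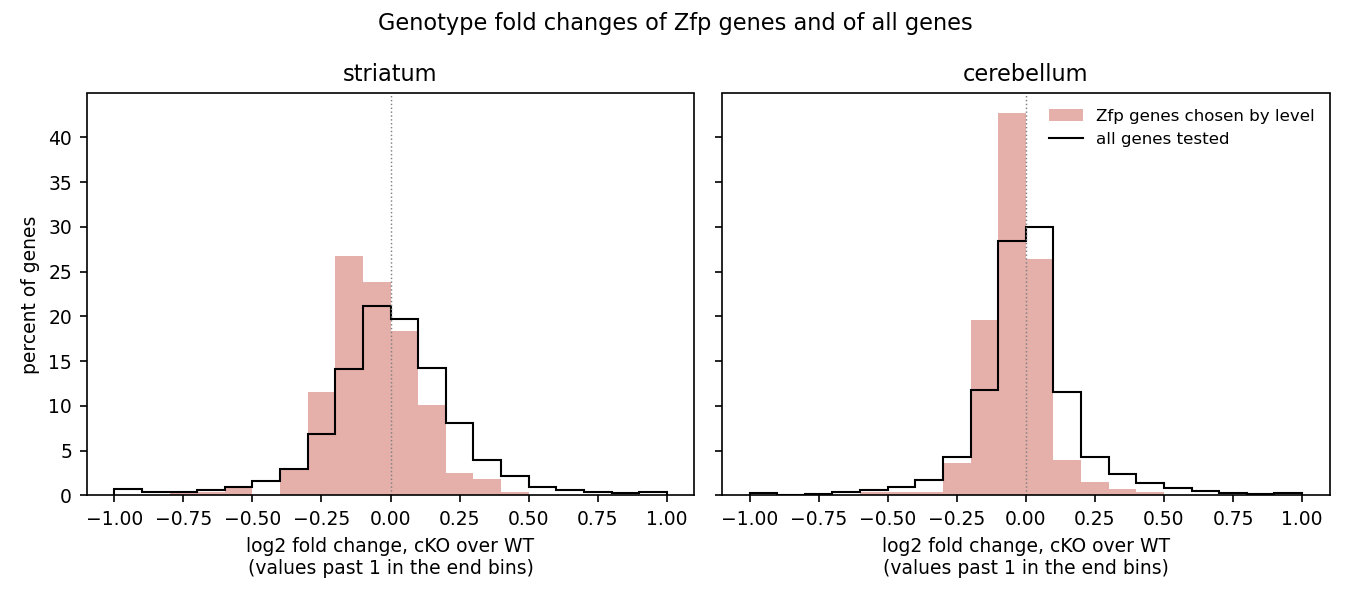
Percent of genes by log2 fold change of cKO over WT in striatum (left) and cerebellum (right), for the genes chosen by level (filled) and for all genes tested (line). The filled distribution leans to the negative side of 0 in both panels, with medians of -0.07 and -0.04.

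Markers of other cells moved beside this. Over all genes tested, 4.96% fell and 2.63% rose in cerebellum, and 0.32% fell and 0.0639% rose in striatum. Of 15 oligodendrocyte and myelin genes, 9 fell in cerebellum (median log2 fold change of the list -0.19) and 7 fell in striatum (-0.83), none at 0 in any group. Their summed level was 4844 to 5357 CPM in cerebellar cKO and 5460 to 5965 CPM in cerebellar WT, and 4976 to 6133 CPM in striatal cKO and 7817 to 9316 CPM in striatal WT. Of 12 astrocyte genes, Gfap, Gja1 and Aqp4 rose and S100b and Slc1a3 fell in cerebellum, and none passed in striatum. None of 10 microglial and 8 endothelial genes passed in either tissue. The 7 choroid plexus genes summed to 760 to 3695 CPM in cerebellar cKO and 41.8 to 2214 CPM in cerebellar WT, and to 48.6 to 197.8 CPM in striatal cKO and 35.9 to 51.9 CPM in striatal WT, with no call. Of 10 cerebellar neuron genes Fat2 fell in cerebellum, and no striatal neuron gene was called in striatum. The part of these markers in the values of the Zfp genes was not tested.

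Genes with a known function were also read by role, where 7.59% of all genes were called in cerebellum and 0.384% in striatum. The 6 KRAB members with a described target in mouse include Zfp445, which maintains imprints, Zfp568, which represses a placental Igf2 transcript, and Zfp809, which silences retroviruses. None of the 6 was called in either tissue, with medians of -0.24 in striatum and -0.04 in cerebellum. Zfp809 had a striatal log2 fold change of -0.28 (adjusted p 0.732) and a cerebellar one of -0.11 (0.351). The 10 members that act on RNA or ribosomes, among them the RNA-binding Zfp106 and the ubiquitin ligase Zfp598, which marks collided ribosomes, had medians of 0.01 in both tissues and no call. Of 21 members known as developmental or promoter regulators, Zfp687 and Zfp219 fell in cerebellum, as above, and none was called in striatum (medians -0.05 and -0.04). These role lists, like the marker lists, were drawn up with earlier results of these data known.

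Among the partners through which KRAB proteins act, 2 of 22 genes passed the test in cerebellum, where 7.59% of all genes did. Of these corepressor genes, Chd3, a helicase of the NuRD complex, rose in cerebellum, with 261.7, 262.2, 273.4 and 254.7 CPM in cKO, against 232.8, 240.0, 224.6 and 222.6 CPM in WT (log2 fold change 0.18, SE 0.0343, adjusted p 0.00367). Atf7ip, a cofactor of SETDB1, fell there (-0.18, SE 0.0445, adjusted p 0.0222). No corepressor gene was called in striatum, and the medians of the list were -0.05 in striatum and -0.04 in cerebellum. Of 20 tested zinc finger genes of the Zkscan, Zscan and related families, none was called in either tissue (medians 0.01 in striatum and -0.02 in cerebellum).

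Among the 277 genes, the 125 with a KRAB pattern had a median log2 fold change of -0.09 in striatum and -0.04 in cerebellum, with 2 genes that rose and 5 that fell in cerebellum. The 149 with a coding sequence but no KRAB pattern had medians of -0.04 and -0.03, with 3 that rose and 7 that fell. On chromosome 7, 6 of 71 genes fell in cerebellum and none rose, against 4.96% lower and 2.63% higher over all genes, a difference that was not tested. On chromosome 8, where Thap1 lies, Zfp617 rose and Zfp276 fell among 22 genes. Of the 9 genes other than Zfp882 with AAGATGGCG in the promoter window, Zfp617 was the 1 called in cerebellum.

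Zfp747 and Zfp689, both among the 6 chromosome 7 genes that fell, start 69.6 kilobases apart. Zfp747 (chr7:127372537-127376050), with 9 fingers and a KRAB pattern, had 6.60, 6.87, 5.50 and 5.37 CPM in cerebellar cKO, against 7.95, 8.63, 7.66 and 8.26 CPM in cerebellar WT (log2 fold change -0.44, SE 0.0992, adjusted p 0.0115). Its striatal libraries had 1.68, 2.50 and 2.21 CPM in cKO, against 3.71, 3.70 and 3.02 CPM in WT, with a log2 fold change of -0.74 that did not pass the test (adjusted p 0.482). Zfp689 (chr7:127442136-127449158), a KRAB gene with 10 fingers, had 7.50, 7.89, 8.37 and 9.29 CPM in cerebellar cKO, against 13.2, 10.8, 13.0 and 10.1 CPM in cerebellar WT (log2 fold change -0.52, SE 0.103, adjusted p 0.00506). In both tissues neither gene overlapped between genotypes. An exon of B130055M24Rik overlaps Zfp689 on the other strand. The neighbours were looked at after these values had been seen. Zfp688, which lies between the pair, had -0.10 in cerebellum (adjusted p 0.565) and 0.40 in striatum (0.74). Before Zfp747 lie Zfp768 at 29.7 kilobases, with -0.09 in cerebellum (adjusted p 0.426), and farther off Zfp771, with -0.0041 (0.991), and Zfp553, with -0.20 (0.0734). After it lie Zfp629 at 234.5 kilobases, with -0.04 (0.623), Zfp668 at 490.5 kilobases, with -0.24 (0.0673), and Zfp646 at 503.7 kilobases, with -0.13 (0.0882). None of these passed the test in either tissue. In Zfp668 and Zfp646, however, all cerebellar cKO libraries lay below all WT libraries. The striatal cKO libraries of Zfp688 all lay above the striatal WT libraries, at 5.52 to 6.48 CPM against 3.31 to 5.32 CPM.

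Zfp764, a gene of the same stretch whose mean of 3.22 CPM kept it out of the group, starts 31.1 kilobases from Zfp747. It had 2.82, 2.92, 1.98 and 2.99 CPM in cerebellar cKO, against 5.57, 6.06, 5.78 and 4.93 CPM in cerebellar WT (log2 fold change -1.07, SE 0.139, adjusted p 0.000122). In striatum it had 0.982, 0.605 and 0.948 CPM in cKO, against 2.52, 3.41 and 3.57 CPM in WT (log2 fold change -1.93, SE 0.290, adjusted p 0.0416). The groups did not overlap in either tissue. Of the 61 Zfp genes under the level rule, 41 were tested in striatum and 46 in cerebellum, and Zfp764 was the 1 gene called, in both. Of all genes tested, 0.384% were called in striatum and 7.59% in cerebellum. The striatal call of Zfp764 rests on cKO levels of at most 0.982 CPM, and its fits without single libraries are not given here.

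**Figure D4:**
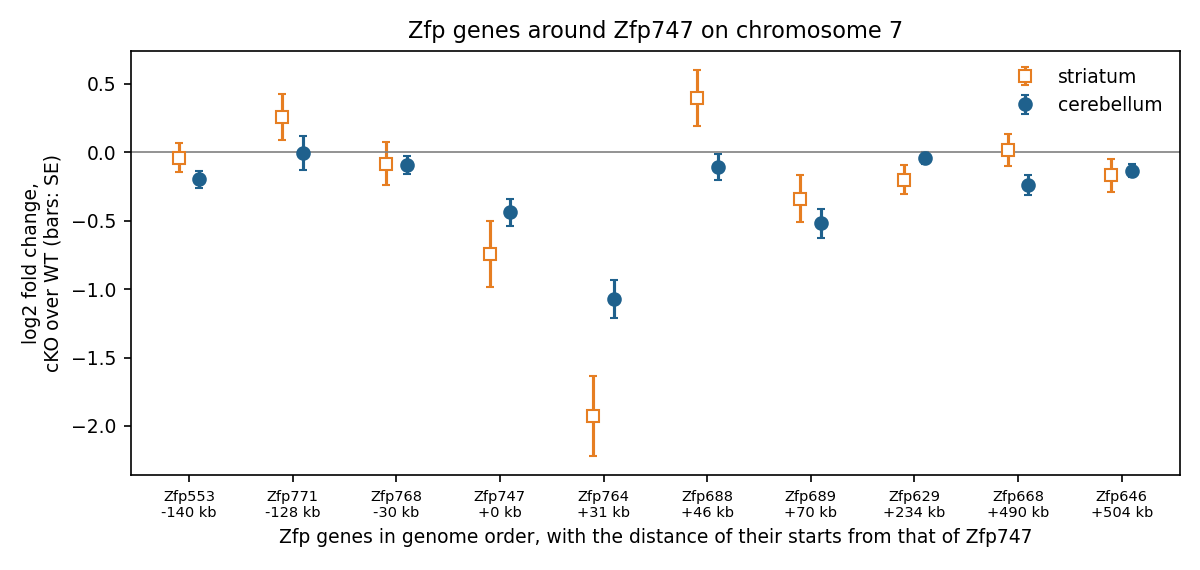
Log2 fold change of cKO over WT with standard errors for the Zfp genes around Zfp747 on chromosome 7, in genome order, in striatum (open squares) and cerebellum (filled circles). Zfp764 is lowest in both tissues, at -1.93 and -1.07, with Zfp747 and Zfp689 next lowest in cerebellum.

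The difference between the tissues in the response to genotype was tested for the 277 genes in 1 model of all libraries, and none was called, against 0.39% of all 15401 genes. At an unadjusted p under 0.05 there were 29 (10.5%, against 11.6%). DESeq2 called 1, Zfp40, with an interaction of 0.40 on the log2 scale (SE 0.0970, adjusted p 0.105 in edgeR). Zfp40 had 22.7, 23.7, 21.3 and 22.6 CPM in cerebellar cKO, against 20.8, 19.9, 19.5 and 21.9 CPM in cerebellar WT. In striatum it had 27.9, 27.9 and 30.3 CPM in cKO, against 34.2, 35.6 and 32.8 CPM in WT. It did not pass the test within either tissue (adjusted p 0.233 in cerebellum and 0.523 in striatum), and only its striatal groups were free of overlap.

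Between WT tissues the genes differed widely, and more often with the higher level in cerebellum. Of 277 genes, 165 were called (59.6%, against 64.2% of all 15031 genes), 124 higher in cerebellum (44.8%, against 32.7%) and 41 lower (14.8%, against 31.5%). The median log2 fold change of WT cerebellum over WT striatum was 0.19, against 0.03 over all genes, and between 0.18 and 0.24 in the other settings. Of the 125 KRAB genes 66 were higher and 8 lower (median 0.31). Of the 149 with a coding sequence but no KRAB pattern 56 were higher and 33 lower (median 0.09). Tissue and any difference in how the libraries were made or sequenced cannot be told apart in this contrast.

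Among those furthest up in cerebellum were 3 regulators of neural development. Zfp521, which drives neural differentiation of mouse stem cells, stood at 176.0 ± 6.36 CPM in WT cerebellum (SD, n = 4) and 28.8 ± 5.06 CPM in WT striatum (SD, n = 3), which is 2.44 higher on the log2 scale (SE 0.123, adjusted p 1.07e-07). Zfp238, now named Zbtb18, a repressor needed for cortical neuron development, stood at 943.1 ± 70.9 CPM in cerebellum and 160.1 ± 16.8 CPM in striatum (2.39). Zfp423, needed for the midline cerebellum in mouse, had a log2 fold change of 1.88, Zfp395 of 2.18, and the KRAB genes Zfp7 of 2.31 and Zfp867 of 1.87. None of the 6 overlapped between the tissues.

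Lower in WT cerebellum were Zfp831, at 0.252 ± 0.381 CPM in cerebellum and 53.8 ± 7.41 CPM in striatum, and Zfp365, at 75.6 ± 8.31 CPM in cerebellum and 800.0 ± 46.8 CPM in striatum (log2 fold change -3.57, SE 0.0981, adjusted p 2.21e-09). Zfp365 is known for a role in oligodendrocyte maturation and at the centrosome. Zfp503, a regulator of striatal development, stood at 3.58 ± 0.702 CPM in cerebellum and 24.6 ± 2.21 CPM in striatum (-2.95). Zfp180, Zfp945 and Zfp462 followed at -1.39, -1.36 and -1.29. None of these 12 genes was called between genotypes in striatum. In cerebellum, where Zfp831 was not tested, Zfp395 was the 1 called.

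**Figure D5:**
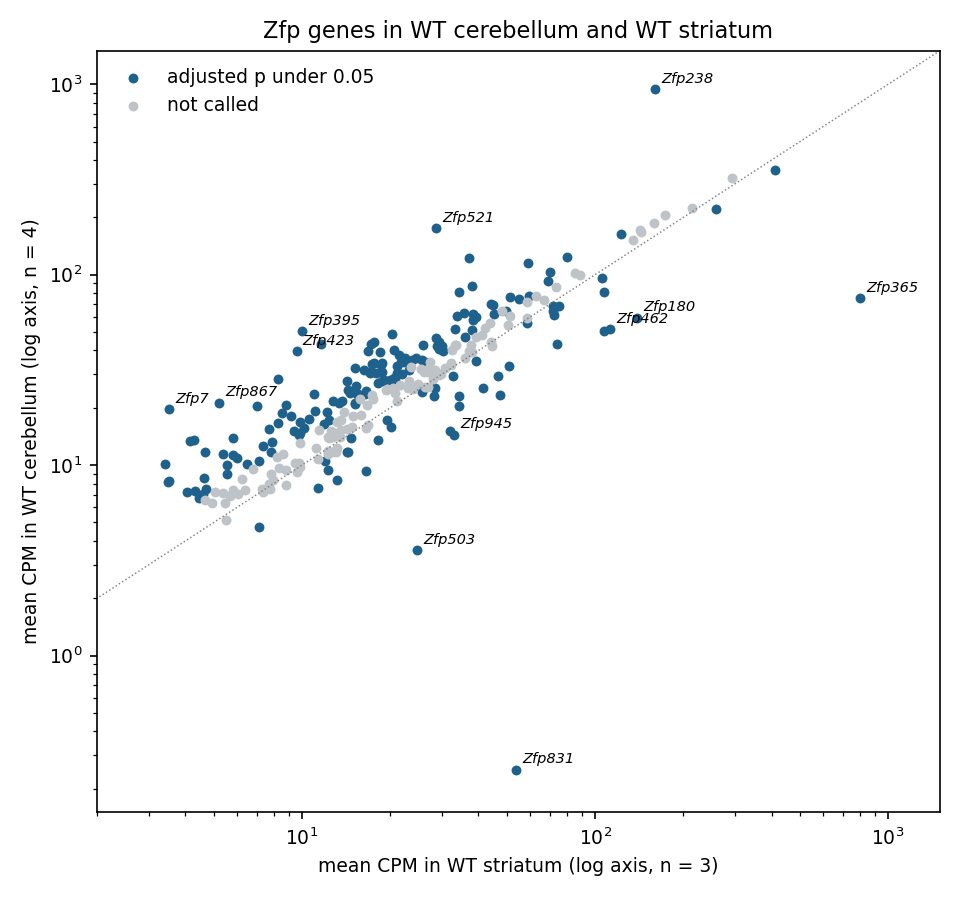
Mean CPM of each of the 279 genes in WT cerebellum (vertical, n = 4) and WT striatum (horizontal, n = 3), both on log axes, with genes called between the tissues in blue and the furthest ones named. Zfp831 lies far below the diagonal, at 0.252 CPM in cerebellum and 53.8 CPM in striatum.

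Per kilobase of exon, the level at which genes can be compared, the members' means over all 14 libraries ranged from 0.771 CPM per kb for Zfp167 to 98.5 CPM per kb for Zfp238, with a median of 4.90. The order differed between the tissues. In WT cerebellum Zfp238 led at 154.0 CPM per kb, followed by Zfp706 at 44.5 and Zfp445 at 43.6, with Zfp106 at 34.2 and Zfp365 at 14.5. In WT striatum Zfp365 led at 154.0 CPM per kb, followed by Zfp706 at 51.8, Zfp445 at 39.5 and Zfp106 at 39.3, with Zfp238 at 26.1. Zfp658 stood at 8.13 and Zfp882 at 8.92 CPM per kb in WT cerebellum, and at 2.37 and 7.14 CPM per kb in WT striatum. Zfp238, Zfp365, Zfp706, Zfp445 and Zfp106 were not called between genotypes in either tissue. Zfp706, which represses translation of a pluripotency factor in mouse stem cells, had 208.6 to 222.4 CPM in cerebellar cKO and 213.8 to 225.7 CPM in cerebellar WT. Zfp445 had 313.5 to 330.3 CPM in cerebellar cKO and 312.6 to 331.2 CPM in cerebellar WT.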

How the data were processed

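RNA sequencing of 14 libraries was used. Each sample has its own table of whole-number read counts by gene symbol, as the authors deposited it. The tools in the submitters' processing notes are HTSeq 0.6.1p1, STAR, DESeq2 and cutadapt 1.13, on mm10, and the strand setting and annotation are unstated. The members, lists and naming rule were chosen with earlier results of these data known.

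Levels are CPM on library totals. Counts were normalised with TMM factors (0.969 to 1.03 in striatum, 0.988 to 1.01 in cerebellum) and kept by filterByExpr (minimum count 10, minimum total 15). Genotypes were compared within each tissue, the tissues within WT, and the genotype by tissue interaction over all 14 libraries, with edgeR 4.0.16's robust quasi-likelihood test (R 4.3.3), with Benjamini-Hochberg adjustment over all tested genes and a threshold of 0.05. SE is the log2 fold change over the square root of F. The fits were tested on simulated counts. Named genes were the smallest p per direction (up to 12), neighbours within 1 megabase of Zfp658 and Zfp882, the highest levels, the genes at the level threshold, the largest tissue differences and up to 4 per list. Zfp40, Zfp276, the stretch around Zfp747 and others seen in counts were named after their values were seen.

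Other settings were DESeq2's size factors, no filter, DESeq2 1.42.0, limma-voom (limma 3.58.1), removal of the exon length trend, a replicate block, 1 model of all libraries, level thresholds of 2 and 10 CPM and leaving out each library. Leaving out both striatal replicate 1 libraries was added after seeing the data. Symbols were matched to GENCODE vM21 (268 members by symbol, 11 by synonym), and fingers were counted in its translated coding sequences. Promoters are from RefSeq. Libraries of a group differed by more than counting noise (chi-square over degrees of freedom 6.18 or more).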

Additional observations from a re-analysis of the deposited data

Results flagged for a closer look

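A library far from the rest of its group was looked for in the cerebellar groups of the named Zfp genes, 78 groups of 4 libraries, by its gap to the nearest other library relative to the range, and 6 groups had one. Chance alone gives about 1 in 20 such groups.

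In cKO cerebellum, Zfp711 had 15.2 CPM in replicate 4, against 16.9 to 17.1 CPM in the other cKO libraries, and Zfp423 had 40.6 CPM in replicate 1, against 37.3 to 37.8 CPM. In WT cerebellum, Zfp715 had 49.5 CPM in replicate 4, against 52.4 to 52.9 CPM in the other WT libraries. WT replicate 2 was the highest of its group for Zfp831, at 0.822 CPM against 0.0411 to 0.0994 CPM, for Zfp462, at 56.8 CPM against 49.4 to 50.2 CPM, and for Zfp423, at 43.1 CPM against 38.5 to 38.6 CPM. The calls of Zfp711 and Zfp715 were kept without each library in turn.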

How the results depend on the processing

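The count of 0 Zfp genes called in striatum became 1 with DESeq2, with limma-voom, with the exon length trend removed (Zfp597 in each) and with a level threshold of 2 CPM (Zfp764), 7 in 1 model of all 14 libraries (1 higher, 6 lower), and 0 to 1 when 1 library was left out (1 without WT replicate 1). It stayed 0 in the other settings. The cerebellar count of 17 became 4 in 1 model of all libraries (Zfp563, Zfp597, Zfp687 and Zfp689), and lay between 12 and 22 without 1 library. The interaction count of 0 was 1 with DESeq2. The tissue count of 165 lay between 143 and 193. The shares of all genes called under these other settings are not given here, so the counts have no background. Thap1 in striatum passed with no filter (-1.36), DESeq2 (-1.37), the length trend removed (-1.44), 1 model (-1.36) and limma-voom (-1.56), and lay between -1.66 and -1.15 without 1 library. In cerebellum it did not pass with DESeq2's size factors (-0.34), DESeq2 (-0.34), 1 model (-0.35) or limma-voom (-0.34), and lay between -0.40 and -0.27 without 1 library. No direction was reversed for a single gene that was called in the main fit or in the setting compared. Changes of sign between fits without a call were not counted. The median interaction of the members, 0.03 in the main fit, was -0.01 without striatal WT replicate 1. Of the values of single genes, 1193 kept their side of the threshold, 13 gained and 49 lost a call. Same-numbered samples of the genotypes correlated at 0.0574 to 0.133 in striatum, each best with its own number. In cerebellum they correlated at 0.0569 to 0.34, and 1 of 4 was best with its own number. By Xist, same-numbered samples of the genotypes were also of the same sex in each tissue. The main fits did not take the numbers as pairs. With the replicate block, 0 genes were called in striatum and 20 in cerebellum. Zfp882 in striatum then had an adjusted p of 0.146, and Thap1 log2 fold changes of -1.40 in striatum and -0.33 in cerebellum. A gene without a call is not shown to be the same in both genotypes at this depth.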
